A study of Mus musculus with 7 samples.

Results

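A set of 40 genes that act in meiotic prophase and recombination was followed in mini-oocytes, which are oocyte-like cells obtained from mouse embryonic stem cells (mESCs) by forced expression of oocyte transcription factors. The set was the 40 symbols of a written list, each found once by its symbol among the 55364 genes of the expression table. The list runs from meiotic entry (3 genes) and meiotic cohesin (3) over the synaptonemal complex and its axis (10) and DNA break formation (5) to repair and crossover (14). It also holds 4 genes of telomere attachment and 1 gene of the intercellular bridge, which were kept as roles of their own.

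RNA was sequenced from 4F-mini-oocytes at day 7 (n = 2, pools of 1000 cells) and day 21 (n = 3, pools of 10 cells) and from 8F-mini-oocytes at day 21 (n = 2, pools of 10 cells). In 4F cells the factors were Nobox, Figla, Tbpl2 and Lhx8, and 8F cells carried these together with Stat3, Dynll1, Sub1 and Sohlh1. All libraries came from derivatives of a single female mESC line, BVSC H18, of hybrid 129/C57BL6 background, grown without gonadal somatic cells. The factors were held stable by Shield-1, which was left out of fresh medium from day 12, and the 8F line also carried an Npm2-mCherry reporter. Day and pool size changed together, so their effects cannot be told apart, and no 8F sample at day 7 was analysed here. The labels number the replicates but do not say whether they came from separate cultures, so the p-values measure the spread between these samples. A pool gives the RNA of its cells together, so fewer cells with a transcript and less transcript per cell cannot be told apart.

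In meiotic prophase, homologous chromosomes are bound by meiotic cohesin, cut by SPO11, joined by the synaptonemal complex and exchanged at crossovers, while telomeres tether them to the nuclear envelope. Female germ cells enter meiosis in the fetal ovary, and the oocytes that later grow are arrested at the end of prophase. Mouse oocytes therefore grow after entry, synapsis and recombination are over.

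The deposited values are in TPM, the reads of a gene per base of exon on a scale with the same total in each library. TPM does not state depth, but low values rose in steps of 1 read. With GENCODE exon lengths, the smallest library came to an estimated 9050279 reads and the largest to 17197900. On a gene with 1 kb of exon, 3 reads were worth 0.515 to 0.765 TPM, a floor that covers counting error only. Of the 10 oocyte markers listed (the zona pellucida genes, Gdf9, Bmp15 and others), none was at 0 in any group. Their summed level was 4777 to 5795 TPM at day 7, 22281 to 25674 TPM in 4F cells at day 21 and 22361 to 22447 TPM in 8F cells at day 21. The markers include Nobox, a forced factor, and the paper states that its values hold transgene as well as endogenous expression. Its mean was 682 TPM at day 7, 1184 TPM in 4F cells and 1031 TPM in 8F cells at day 21.

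Meiotic transcripts were present at both days, but at unequal levels among the roles. No mESC library was among the 7, so presence cannot be read as a gain on induction. The paper reports no induction of the meiosis markers it examined. At day 7, 38 of the 40 genes had a mean of at least 1 TPM, and at day 21 this held for 32 in 4F and 33 in 8F cells. Their median level was 17.3 TPM at day 7, 14.3 TPM in 4F and 10.4 TPM in 8F cells at day 21. There were 31 genes above 0 in all 7 libraries. Syce3, which encodes a central element protein of the synaptonemal complex, was listed at 0 in all 7, which at 3 reads allows 1.23 TPM on average in the 4F day 21 libraries. Stra8 and Spo11 were listed at 0 in all 5 day 21 libraries, and Rec8, Mei1 and Spata22 stayed under 1 TPM there.

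**Figure D1:**
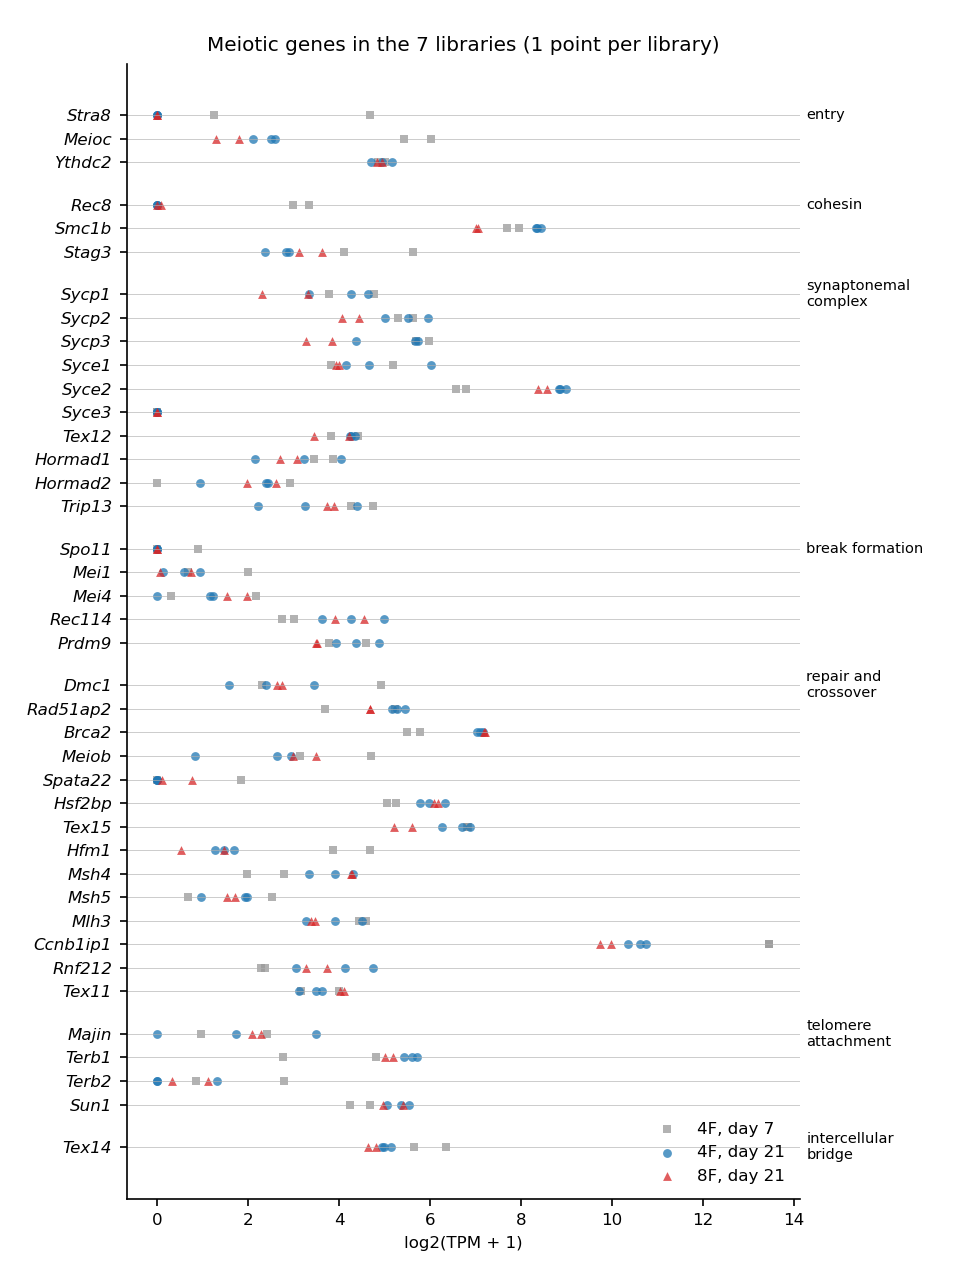
Levels of the 40 meiotic genes on the scale of log2(TPM + 1), in rows grouped by role, with 1 point per library (squares, 4F day 7, n = 2; circles, 4F day 21, n = 3; triangles, 8F day 21, n = 2). Stra8, Meioc, Rec8, Stag3 and Hfm1 lay higher in both day 7 libraries than in all 5 day 21 libraries, and Syce2 and Brca2 lay lower.

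For a view of the regulatory sequence, the 250 bases before each gene's RefSeq start (GRCm38.p6) were read, which 33 of the 40 genes had in the promoter table used. Ythdc2, Spo11, Meiob, Tex15, Tex11, Majin and Terb2 had no entry. Both strands were searched for TCCCGC (the core of E2F sites), CACGTG (an E-box), TAATTG (the core of NOBOX sites) and CCTCAG (the core of the sequence bound by STRA8 with MEIOSIN). TCCCGC stood before 19 of the 33 genes (57.6%), against 4225 of 17492 protein-coding genes (24.2%) and 18.8% of all 27025 genes of the table. CACGTG stood before 7 of them (21.2%), against 7.61% of protein-coding genes. CCTCAG was found before 9 (27.3%), against 24.9%, and TAATTG before 2 (6.06%), against 7.33%. TCCCGC stood before 7 of the 9 genes that rose from day 7 to day 21, before 4 of the 7 that fell and before 7 of the 14 that were tested without passing the threshold and had an entry. The 4 include Ccnb1ip1, whose listed fall is that of reads shared with Rpph1 (below). These shares are descriptions without a test, and a match is not a binding site. Printed below are windows of 4 genes whose change between the days held in every setting tried. Each of these 4 windows is free of annotated exons, and Ccnb1ip1 was left out for its shared reads. The window of Sycp3, which holds 2 kinds of motif, was added, although 18 of its bases lie in an annotated exon. All read as follows from 5′ to 3′ on the gene's own strand, with each match on either strand in capitals.
Meioc (chr11:102665335-102665584, + strand): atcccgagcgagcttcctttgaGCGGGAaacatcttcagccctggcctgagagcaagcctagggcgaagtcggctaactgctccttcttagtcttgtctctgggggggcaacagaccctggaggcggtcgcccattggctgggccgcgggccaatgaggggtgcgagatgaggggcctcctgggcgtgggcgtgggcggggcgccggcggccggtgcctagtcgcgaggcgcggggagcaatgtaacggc
Hfm1 (chr5:106925891-106926140, - strand): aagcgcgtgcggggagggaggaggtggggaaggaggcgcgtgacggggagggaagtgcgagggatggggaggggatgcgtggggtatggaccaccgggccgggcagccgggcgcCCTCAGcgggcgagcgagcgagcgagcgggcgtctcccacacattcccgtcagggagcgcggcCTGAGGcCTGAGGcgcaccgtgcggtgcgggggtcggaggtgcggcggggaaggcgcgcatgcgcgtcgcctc
Syce2 (chr8:84871861-84872110, + strand): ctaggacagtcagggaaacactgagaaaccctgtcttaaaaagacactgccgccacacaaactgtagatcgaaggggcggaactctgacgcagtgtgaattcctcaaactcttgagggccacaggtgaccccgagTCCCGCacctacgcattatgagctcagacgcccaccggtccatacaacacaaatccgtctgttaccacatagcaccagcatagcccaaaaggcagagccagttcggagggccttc
Brca2 (chr5:150522371-150522620, + strand): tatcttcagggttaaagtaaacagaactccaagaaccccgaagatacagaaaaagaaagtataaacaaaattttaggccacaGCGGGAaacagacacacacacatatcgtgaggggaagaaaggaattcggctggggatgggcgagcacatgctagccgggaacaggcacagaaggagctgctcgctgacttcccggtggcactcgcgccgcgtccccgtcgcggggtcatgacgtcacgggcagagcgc
Sycp3 (chr10:88459337-88459586, + strand): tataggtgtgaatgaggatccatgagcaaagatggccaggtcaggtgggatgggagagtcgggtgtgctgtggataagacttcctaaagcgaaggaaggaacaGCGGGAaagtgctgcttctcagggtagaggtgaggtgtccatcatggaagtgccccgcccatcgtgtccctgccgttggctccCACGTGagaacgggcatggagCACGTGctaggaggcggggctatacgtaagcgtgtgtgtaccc
In these windows, the capitals mark TCCCGC (or its reverse complement GCGGGA) in Meioc, Syce2, Brca2 and Sycp3, CACGTG in Sycp3, and CCTCAG (or CTGAGG) in Hfm1. The matches nearest the start were at base -228 in Meioc, -115 in Syce2, -168 in Brca2, -43 in Sycp3 and -66 in Hfm1.

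The first comparison asked how the genes differed between day 7 and day 21 of 4F culture. The 21780 genes that reached 1 TPM in 2 or more libraries were tested on log2(TPM + 1) with limma and Benjamini-Hochberg (BH) adjustment over all of them, and standard errors (SE) are on the log2 scale. On this basis, 16 of the 36 meiotic genes tested were past a false discovery rate (FDR) of 0.05. That is 44.4% of those tested, beside 40.6% of all genes tested, so the share lay near the background. There were 9 genes higher at day 21 (25.3% of all genes tested were called higher) and 7 lower (15.3% of all genes). The median log2 fold change was -0.08 over the meiotic genes tested and 0.17 over all genes tested. The libraries of the 2 days did not overlap for 17 of the meiotic genes tested, 9 higher and 8 lower, beside 56.7% of all genes tested (33.8% higher and 22.9% lower). Syce3, Spo11, Mei1 and Spata22 were too low to be tested. Of the 7 genes that fell, Stra8 and Rec8 were tested through the day 7 libraries alone, so they could differ in 1 direction only. Both are kept in the counts of lower genes here, and so is Ccnb1ip1, whose reads are shared with Rpph1.

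The balance of the directions depended on how the libraries were scaled. Median-of-ratios rescaling left 4 genes higher and 7 lower, quantile normalization 5 and 8, and voom on reads estimated from the TPM 3 and 13. The median of all genes tested moved from 0.17 to -0.06, 0.04 and -0.32 on the log2 scale under these. In all 18 other settings tried, Syce2 and Brca2 were past the threshold as higher, and Meioc, Rec8, Hfm1, Tex14 and Ccnb1ip1 as lower. Of these, Rec8 could differ as lower only, and Ccnb1ip1 shares its reads with Rpph1 (below). The other 9 calls were lost in at least 1 setting. Without replicate 1 of the day 7 libraries, 8 genes were higher and 6 lower, and without replicate 2, 4 and 7. The median over the meiotic genes was 0.26 without the first and -0.68 without the second, so its sign depended on the day 7 library. The summed markers moved with the day: the 9 pluripotent stem cell markers summed to 225 to 382 TPM at day 7 (3 of them at 0 in both libraries) and to 859 to 1057 TPM in 4F cells at day 21 (2 at 0). Most of this sum was Dppa5a (mean 232 and 671 TPM) and Pou5f1 (27.3 and 196 TPM), while Zfp42 was lower at day 21 (21.2 and 7.30 TPM) and Nanog was at 0 there. The 10 proliferation markers summed to 404 to 482 TPM and to 977 to 1036 TPM. The paper reports that cells soon stopped proliferating in the presence of Shield-1, and these sums do not count stem or dividing cells. Their part in the result was not tested. The 6 granulosa cell markers summed to 7.37 to 11.6 TPM at day 7 (3 at 0) and to 2.50 to 6.73 TPM at day 21 (2 at 0).

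Of the 3 entry genes, 2 fell and 1 did not pass the threshold. Stra8, a retinoic acid-induced factor that opens the meiotic programme, was at 24.5 and 1.38 TPM at day 7 and at 0 in the 3 day 21 libraries. The day 7 libraries differed 17.7-fold from each other, and only replicate 1 held more than a few TPM. The gene entered the test through these libraries alone, so its p gives no support for the direction. Its mean at day 7 was at least 34.1-fold above the floor of 3 reads per library at day 21 (limma, BH-adjusted p = 0.0394), and the call held in 7 of 17 other settings that gave a p (adjusted p 0.000535 to 0.0981). It was lost when any of the day 21 libraries was left out. Meioc, which encodes a cofactor that prolongs meiotic prophase, was at 64.1 and 41.7 TPM at day 7 and at 3.33, 5.04 and 4.65 TPM at day 21. The groups were far apart, with a 12.2-fold lower mean at day 21 (log2 fold change -3.32, SE 0.35, limma, BH-adjusted p = 0.00067). Ythdc2 encodes the RNA helicase that works in a complex with MEIOC. It was at 31.2 and 27.7 TPM at day 7 and at 25.1, 34.6 and 29.9 TPM at day 21. Its groups overlapped (log2 fold change 0.01, adjusted p = 0.975 in the same test), although it was under 0 in 6 other settings, among them voom on estimated reads (-0.52, adjusted p = 0.0389).

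The 3 meiotic cohesin genes went apart. Rec8, the meiosis-specific kleisin, was at 9.03 and 6.92 TPM at day 7 and at 0 in the 3 day 21 libraries. Its mean at day 7 was at least 34.3-fold above the floor of 3 reads (limma, BH-adjusted p = 0.000463). It entered the test through the day 7 libraries alone, so this p gives no support for the direction. Stag3, a cohesin subunit that binds the kleisin, was at 48.0 and 16.3 TPM at day 7 and at 6.07, 4.18 and 6.45 TPM at day 21. The groups did not overlap, and the mean was 5.78-fold lower at day 21 (log2 fold change -2.17, SE 0.48, limma, BH-adjusted p = 0.0118). This call was lost without replicate 1 of the day 7 libraries (adjusted p = 0.0512), the highest value over all settings. Smc1b, the meiosis-specific SMC subunit, was at 246 and 205 TPM at day 7 and at 345, 319 and 324 TPM at day 21. All 3 day 21 libraries were above both day 7 libraries (log2 fold change 0.55, SE 0.11, adjusted p = 0.00798). On other scales this rise was smaller or gone, at 0.21 after median-of-ratios rescaling, 0.03 with voom and -0.01 after quantile normalization, and the call held in 14 of 18 other settings.

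Of the 9 synaptonemal complex and axis genes tested, 1 rose and 8 did not pass. Syce2, a central element protein, was at 109 and 94.0 TPM at day 7 and at 506, 459 and 456 TPM at day 21. All 3 day 21 libraries were above both day 7 libraries, and the mean was 4.65-fold higher (log2 fold change 2.21, SE 0.12, limma, BH-adjusted p = 7.04e-05). Its fold change was between 1.65 and 2.32 on the log2 scale in all settings. The promoter window of Syce2 above holds 1 TCCCGC. A second RefSeq start of Syce2, whose window is not printed, has TCCCGC at base -34, CCTCAG at -39 and CACGTG at -88. Its binding partner Tex12 was at 20.3 and 13.2 TPM at day 7 and at 17.9, 18.1 and 19.5 TPM at day 21, with overlapping groups. The central element gene Syce1 ranged from 13.1 to 35.1 TPM at day 7 and from 16.7 to 63.7 TPM at day 21.

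The axis and transverse filament genes were detected at both days. Sycp3, the main axial element protein, was at 61.7 and 50.5 TPM at day 7 and at 52.3, 19.8 and 49.8 TPM at day 21, where replicate 2 was low. Its fold change of -0.57 (limma, BH-adjusted p = 0.344) was -1.08 with voom, the only setting in which it was past the threshold (adjusted p = 0.0487). Of the 1264 exon bases of Sycp3, 660 are shared with Chpt1 on the opposite strand, and no strand option is stated for the counting. Sycp2, its axial partner, was at 48.5 and 37.9 TPM at day 7 and between 31.0 and 60.5 TPM at day 21. Sycp1, the transverse filament protein, was at 26.2 and 12.8 TPM at day 7 and between 9.02 and 23.9 TPM at day 21, so that its groups overlapped as well. Hormad1 and Hormad2, axis proteins that monitor synapsis, were at 13.6 and 9.97 TPM and at 6.52 and 0 TPM at day 7. At day 21 they ranged from 3.46 to 15.3 TPM and from 0.927 to 4.36 TPM. Trip13, the ATPase that strips HORMA proteins from the axis, was at 18.3 and 25.6 TPM at day 7 and at 8.48, 3.65 and 20.0 TPM at day 21, with an overlap through replicate 3.

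**Figure D2:**
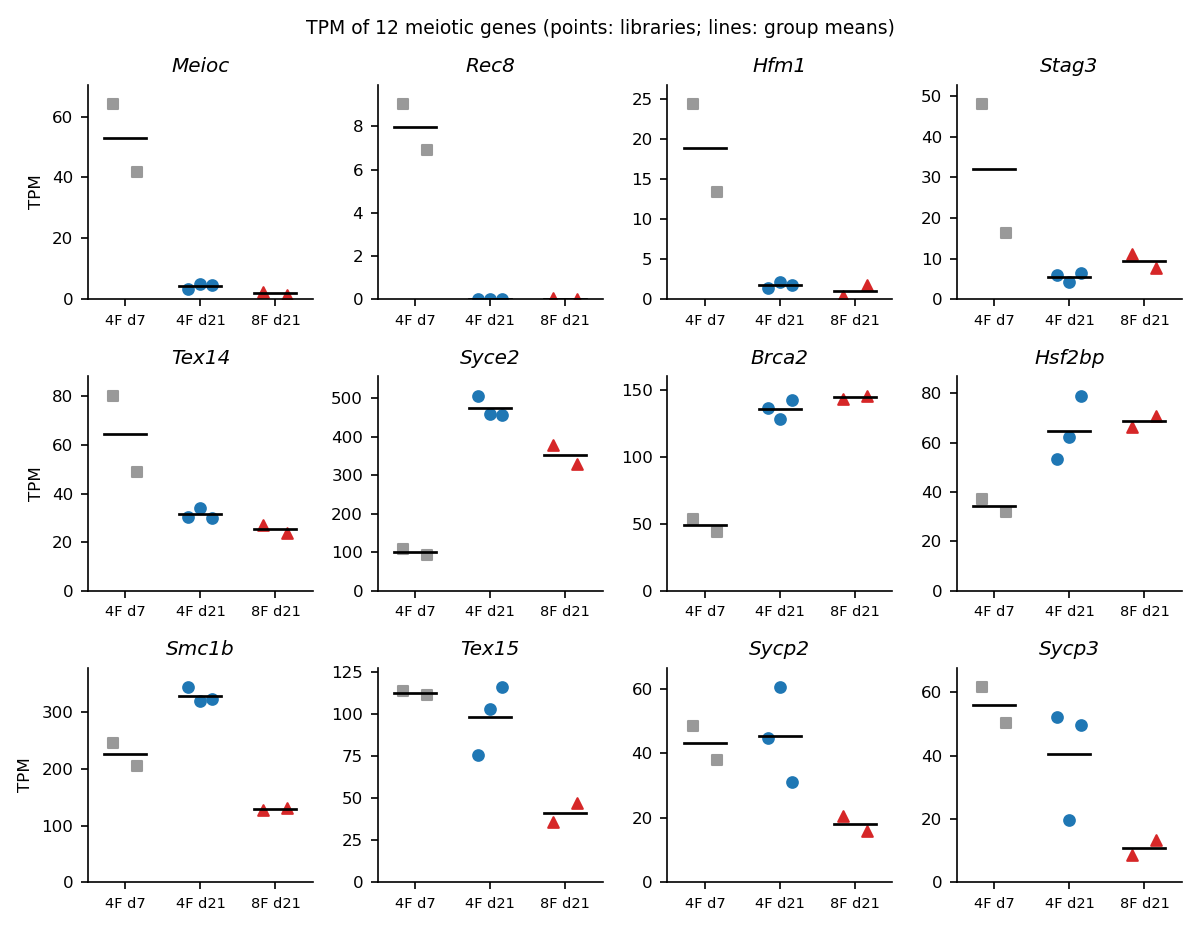
TPM of 12 meiotic genes in each library (vertical axes from 0, points for libraries, lines for group means; 4F day 7, n = 2; 4F day 21, n = 3; 8F day 21, n = 2). Meioc, Rec8, Hfm1, Stag3 and Tex14 were lower at day 21, Syce2, Brca2 and Hsf2bp were higher, and Smc1b and Tex15 were lower in 8F than in 4F cells at day 21.

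Break formation genes were low, apart from Prdm9 and Rec114. Spo11, the nuclease that makes the breaks, was at 0.845 TPM in 1 day 7 library and at 0 in the other 6, which at 3 reads allows 0.174 TPM on average in the 4F day 21 libraries. Mei1, needed for break formation, was at 3.01 and 0.606 TPM at day 7 and at most 0.905 TPM at day 21. Mei4, a partner of REC114, was at 3.52 and 0.232 TPM at day 7 and at 0, 1.23 and 1.33 TPM in 4F cells at day 21. These values are near the floor in several libraries. Rec114, a break formation cofactor, was at 5.69 and 7.05 TPM at day 7 and at 30.8, 18.2 and 11.4 TPM at day 21. All day 21 libraries were higher, over a 2.70-fold range among themselves (log2 fold change 1.42, SE 0.43, limma, BH-adjusted p = 0.0379), but 344 of its 1277 exon bases are shared with Nptn on the opposite strand. This call held in 5 of 18 other settings (adjusted p 0.0169 to 0.269) and was lost without any library other than replicate 3 of 4F at day 21. Prdm9, the histone methyltransferase that places the breaks, was at 23.0 and 12.7 TPM at day 7 and between 14.3 and 28.2 TPM at day 21, with overlapping groups.

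Among the repair and crossover genes, 4 of the 13 tested rose and 2 fell. The 2 were Hfm1 and Ccnb1ip1, the second through reads shared with Rpph1 (below). Brca2, which loads recombinases on single-stranded DNA, was at 54.0 and 43.8 TPM at day 7 and at 136, 129 and 142 TPM at day 21. The groups were well separated, with a mean 2.78-fold higher at day 21 (log2 fold change 1.46, SE 0.12, limma, BH-adjusted p = 0.000273), and its window above holds TCCCGC on the other strand. Hsf2bp, which encodes a BRCA2-binding protein, was at 37.0 and 32.0 TPM at day 7 and at 53.5, 62.1 and 79.1 TPM at day 21. All day 21 libraries were higher, with a mean 1.88-fold higher (log2 fold change 0.88, limma, BH-adjusted p = 0.00951), in 15 of 18 other settings but not after quantile normalization, with voom or without replicate 2 of day 7 (adjusted p 0.00701 to 0.213 over the settings).

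The other strand exchange genes did not pass the threshold between the days. Dmc1, the meiotic recombinase, was at 29.2 and 3.93 TPM at day 7 and at 4.21, 9.83 and 1.96 TPM at day 21. Replicate 1 of day 7 was above the day 21 range and replicate 2 within it, and the fold change of -1.15 was within the error (SE 0.86, limma, BH-adjusted p = 0.331). Meiob, a single-stranded DNA binding protein, was at 25.0 and 7.76 TPM at day 7 and at 6.64, 0.767 and 5.16 TPM at day 21, without overlap but not past the threshold (adjusted p = 0.108, same test). Spata22, its partner, was at 2.60 TPM in 1 day 7 library and at 0 in the other and in all 3 day 21 libraries, and 1025 of its 1274 exon bases also belong to Gm49340 on the same strand. Rad51ap2 was at 36.5 and 11.9 TPM at day 7 and at 37.6, 42.4 and 34.8 TPM at day 21 (adjusted p = 0.161, same test). Tex15, needed for recombinase loading and for silencing of transposons, was at 114 and 112 TPM at day 7 and between 75.8 and 116 TPM at day 21, with overlapping groups.

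The crossover genes split. Hfm1, a DNA helicase of the crossover pathway, was at 24.4 and 13.5 TPM at day 7 and at 1.40, 2.20 and 1.75 TPM at day 21. Each day 7 library was above all day 21 libraries, with a mean 10.6-fold lower at day 21 (log2 fold change -2.79, SE 0.47, limma, BH-adjusted p = 0.00412), and its window above holds CCTCAG 3 times. Msh4 was at 5.91 and 2.92 TPM at day 7 and at 14.0, 9.11 and 18.7 TPM at day 21, all above day 7 (log2 fold change 1.47, limma, BH-adjusted p = 0.0231), and the call held in 11 of 18 other settings (adjusted p 0.0126 to 0.12). It was lost without replicate 2 of day 7, replicate 1 or 3 of 4F at day 21 or either 8F library. The protein of Msh4 pairs with that of Msh5, which was at 4.70 and 0.589 TPM at day 7 and between 0.949 and 2.92 TPM at day 21. Rnf212, a RING protein of designated crossovers, was at 4.17 and 3.83 TPM at day 7 and at 7.25, 16.3 and 25.8 TPM at day 21. All 3 were higher (log2 fold change 1.65, limma, BH-adjusted p = 0.0402), but they differed 3.55-fold among themselves, and the call held in 5 of 18 other settings (adjusted p 0.00856 to 0.246), being lost without any library other than replicate 1 of 4F at day 21. Mlh3, a MutL protein that acts in crossover resolution, was at 22.9 and 20.5 TPM at day 7 and at 8.62, 21.5 and 14.0 TPM at day 21. Tex11, an X-linked crossover protein, was between 7.98 and 15.0 TPM at day 7 and between 7.60 and 11.4 TPM at day 21, and the groups of both genes overlapped.

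Ccnb1ip1, which encodes the crossover protein HEI10, had the highest listed values of the set, but its reads could not be separated from those of another gene. It was at 11165 and 11120.3 TPM at day 7, at 1305, 1704 and 1571 TPM in 4F cells and at 845 and 998 TPM in 8F cells at day 21. On chromosome 14 (50789248 to 50807732, minus strand, GRCm38), 1 of its 2 annotated transcripts starts with an exon of 233 bases that lies inside Rpph1, the RNA of RNase P (50807449 to 50807767, same strand). Rpph1 had 65875 and 65639 TPM at day 7 and 7654, 10019 and 9266 TPM in 4F cells at day 21. The authors counted a read on several genes as a fraction for each. The estimated reads of Ccnb1ip1 were between 1.000 and 1.014 times those of Rpph1 in each library, with an excess of 4.00 to 146 reads. Over the exons of Ccnb1ip1, this excess would be 4.87 and 0.407 TPM at day 7. At day 21 it would be 7.93, 6.97 and 1.71 TPM in 4F cells and 8.75 and 13.7 TPM in 8F cells. The excess thus did not fall with the listed value. The log2 fold change of -2.88 between the days (limma, BH-adjusted p = 8.05e-05) is therefore that of reads shared with Rpph1. It shows no fall of Ccnb1ip1 itself. Without Ccnb1ip1, 9 meiotic genes were higher and 6 lower at day 21. Without all 8 genes whose exons overlap those of another gene, 29 were tested, of which 4 were higher and 6 lower. Of all genes tested, 25.3% were higher and 15.3% lower.

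**Figure D3:**
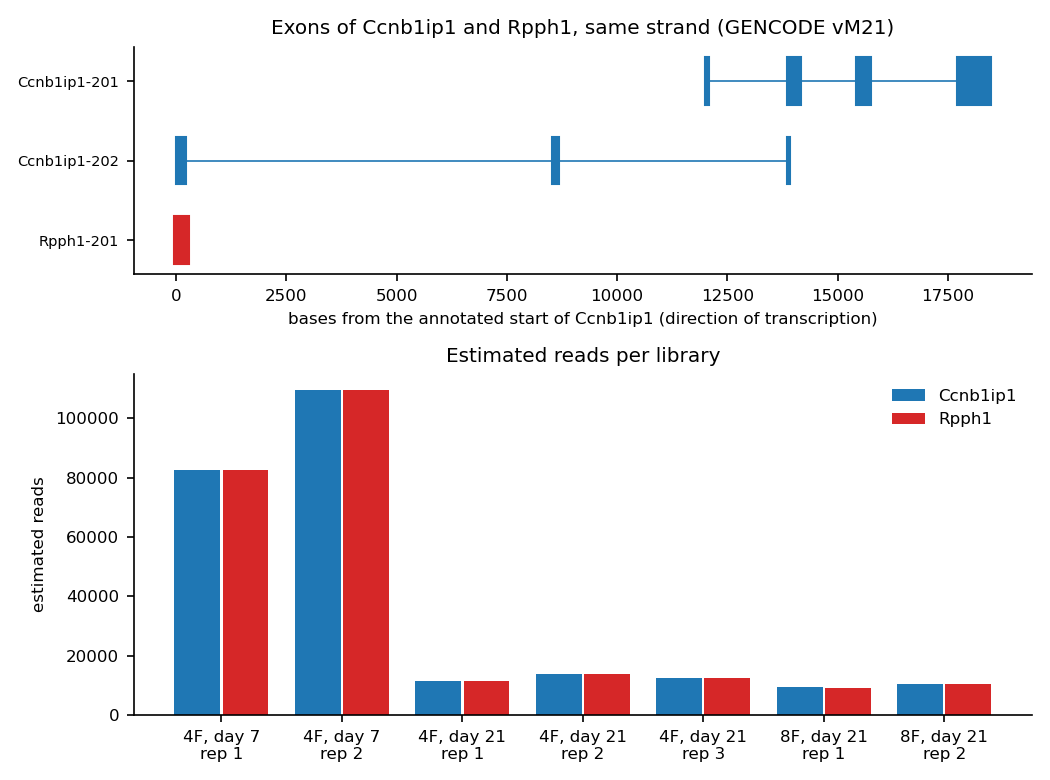
Top, exons (boxes) of the 2 Ccnb1ip1 transcripts and of Rpph1 by distance in bases from the annotated start of Ccnb1ip1. Bottom, estimated reads of both genes in each of the 7 libraries, which were equal within 1.37% of the Ccnb1ip1 reads and fell together from day 7 to day 21.

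Telomere attachment genes rose or did not pass, and the bridge gene fell. Terb1, a telomere-binding adaptor, was at 27.2 and 5.77 TPM at day 7 and at 51.1, 41.7 and 47.2 TPM at day 21. The day 21 libraries were all higher, while the day 7 libraries differed 4.71-fold (log2 fold change 1.78, SE 0.54, limma, BH-adjusted p = 0.0382), and the call held in 7 of 18 other settings (adjusted p 0.00118 to 0.0988), never with a day 21 library left out. Sun1, the inner nuclear membrane anchor, was at 24.6 and 17.8 TPM at day 7 and at 40.3, 45.3 and 32.1 TPM at day 21, all above day 7 (log2 fold change 0.86, adjusted p = 0.0267, same test), in 11 of 18 other settings (adjusted p 0.0212 to 0.231) but not without replicate 2 of day 7 or replicate 1 or 2 of 4F at day 21. Majin, the membrane partner of TERB1, was between 0 and 10.3 TPM over the 5 libraries and Terb2 between 0 and 5.90 TPM, both with overlapping groups. Tex14, a protein of the bridges that join germ cells, was at 80.4 and 49.1 TPM at day 7 and at 30.6, 34.1 and 29.9 TPM at day 21. Its mean was 2.05-fold lower at day 21, with no overlap (log2 fold change -0.98, SE 0.22, limma, BH-adjusted p = 0.0134).

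**Figure D4:**
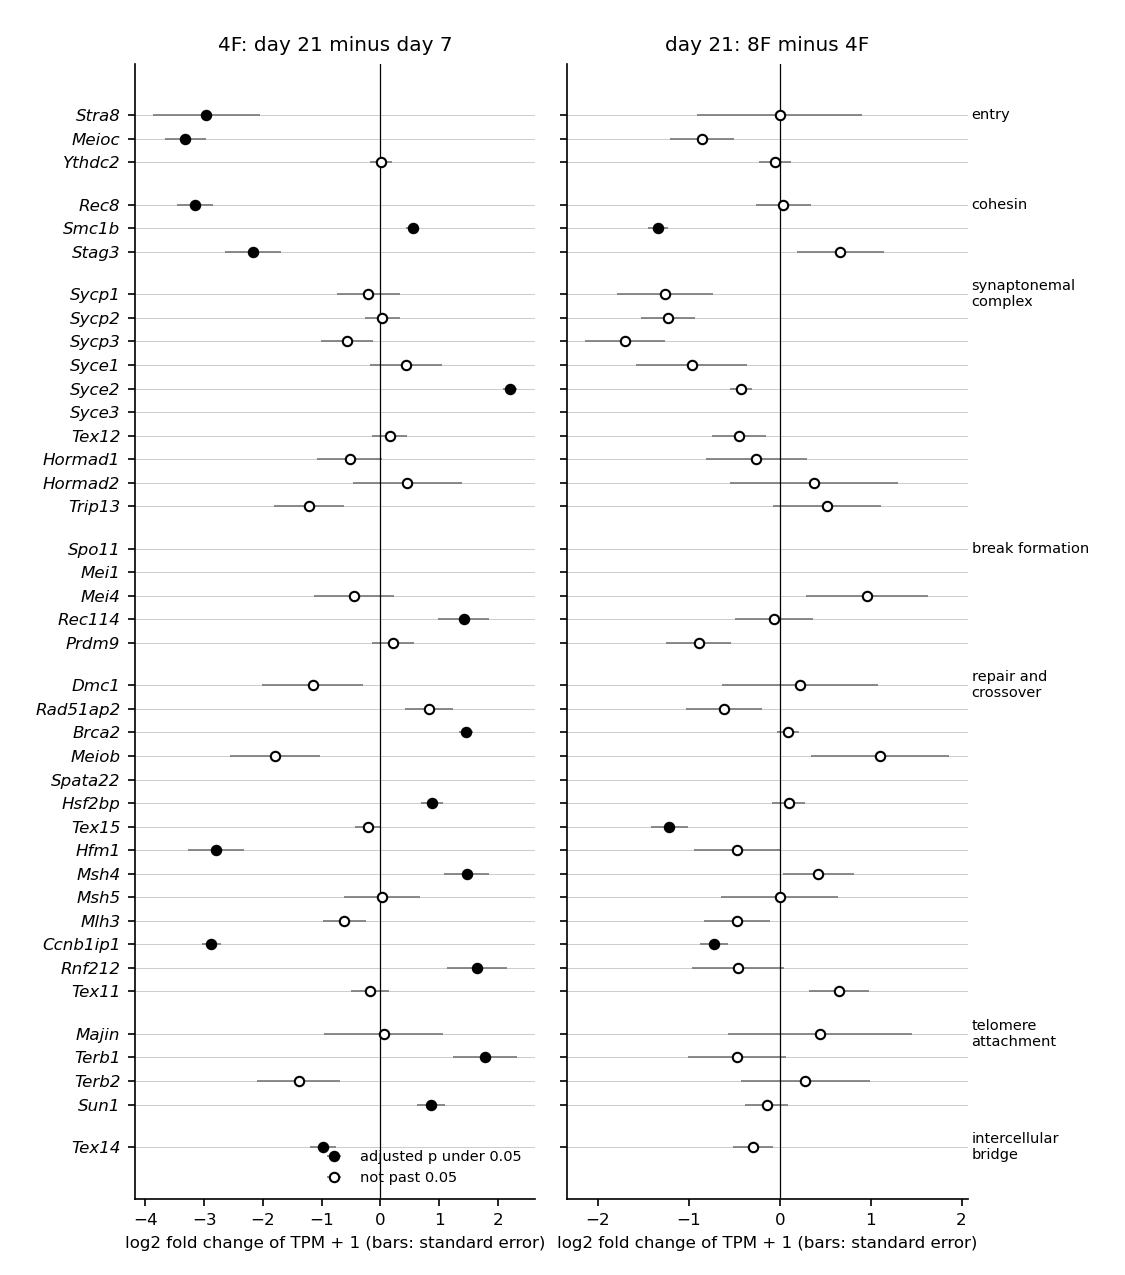
Log2 fold changes of TPM + 1 with standard errors from limma for the meiotic genes tested, by role, between day 21 and day 7 in 4F cells (left) and between 8F and 4F cells at day 21 (right); the 2 panels share the 4F day 21 libraries. Filled points had a Benjamini-Hochberg adjusted p under 0.05, which were 16 genes on the left and 3 on the right, and the 4 genes without a point were not tested.

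The second comparison asked how the genes differed between 4F and 8F cells at day 21. Factor set, mESC line and the Npm2-mCherry reporter changed together, so their effects cannot be told apart. This comparison uses the same 4F day 21 libraries as the first, so the comparisons are not independent. Of the 36 genes tested, 3 were past FDR 0.05 (8.33%, beside 8.37% of all genes tested), and all 3 were lower in 8F cells (4.41% of all genes were called lower). None was higher (3.95% of all genes were), 8 had an unadjusted p under 0.05 (4858 of all 21780 genes did), and voom likewise called 0 higher and 3 lower. The median log2 fold change was -0.20 over the meiotic genes tested and 0.06 over all genes. The oocyte markers overlapped in summed level between the groups, as given above, but 9 of the 10 did not overlap singly. Zp1, Zp2, Nobox, H1f8 and Ddx4 (mean 205 TPM in 4F and 109 TPM in 8F cells) were lower in 8F cells, and Gdf9, Bmp15, Oosp1 and Zar1 were higher. Of these, Nobox includes transgene expression. The pluripotent stem cell markers summed to 1038 to 1199 TPM in 8F cells. The part of these markers in the result was not tested.

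Smc1b was at 127 and 131 TPM in 8F cells, below all 3 4F libraries, with a mean 2.55-fold lower (log2 fold change -1.34, SE 0.11, limma, BH-adjusted p = 0.00297). The call held in all 18 other settings, between -1.37 and -1.21. The 8F values also lay below both day 7 values of 4F cells, a difference that was not tested here. Tex15 was at 35.9 and 47.1 TPM in 8F cells, below the lowest 4F library, with a mean 2.37-fold lower (log2 fold change -1.22, SE 0.21, limma, BH-adjusted p = 0.0211), in 12 of 18 other settings (adjusted p 0.00955 to 0.208). The call was lost without replicate 2 or 3 of 4F or either 8F library. The third, Ccnb1ip1 (log2 fold change -0.72, adjusted p = 0.0421), shares its reads with Rpph1 and held in 5 of 18 other settings (adjusted p 0.02 to 0.394), in none of them with a library left out. Without it, 2 genes were lower and none higher.

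None of the 9 synaptonemal complex and axis genes tested passed the adjusted threshold between 8F and 4F cells. Their median log2 fold change was -0.45, and 6 of them were lower in both 8F libraries than in all 3 4F libraries, as were 19.8% of all genes tested. Sycp3 was at 8.69 and 13.3 TPM in 8F cells, with a mean 3.69-fold lower (log2 fold change -1.70, SE 0.44, limma, BH-adjusted p = 0.0658, 0.0207 to 0.451 over the other settings). Sycp2 was at 20.7 and 15.8 TPM, with a mean 2.49-fold lower (log2 fold change -1.23, adjusted p = 0.0542, 0.0176 to 0.355 over the other settings of limma). Both axial element genes thus fell just short of the threshold and passed it in 2 and 3 other settings. Sycp1 was at 3.96 and 8.96 TPM, the second just under the lowest 4F library. Syce1 (14.9 and 14.3 TPM), Syce2 (378 and 328 TPM) and Tex12 (9.97 and 17.6 TPM) were also lower without overlap, with adjusted p of 0.430, 0.0836 and 0.459 in limma with Benjamini-Hochberg adjustment. Hormad1 (5.51 and 7.37 TPM), Hormad2 (5.15 and 2.91 TPM) and Trip13 (13.8 and 12.2 TPM) overlapped with 4F cells.

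The remaining genes differed by less than the test could resolve, and this does not show that they were alike. The 8F and 4F libraries did not overlap for 19 of the 36 genes tested, 14 lower and 5 higher in 8F cells, and for Spata22, which was too low to be tested. Of all genes tested, 43.8% did not overlap (19.8% lower and 24.1% higher), so that lack of overlap alone says little here. Of the genes without overlap, Meioc (2.49 and 1.44 TPM in 8F cells), Prdm9 (10.2 and 10.4 TPM), Rad51ap2 (24.8 and 24.5 TPM), Terb1 (35.3 and 31.3 TPM) and Tex14 (27.2 and 23.8 TPM) were lower. Stag3 (11.2 and 7.62 TPM), Mei4 (2.91 and 1.89 TPM), Brca2 (143 and 146 TPM), Meiob (6.86 and 10.2 TPM), Spata22 (0.0673 and 0.694 TPM) and Tex11 (15.2 and 16.1 TPM) were higher. None of these was past the threshold, with adjusted p for those tested from 0.208 for Prdm9 to 0.744 for Brca2 (limma with Benjamini-Hochberg adjustment). Rec8 was at 0.0585 and 0 TPM in 8F cells and Dmc1 at 5.22 and 5.67 TPM. Hsf2bp (66.5 and 70.8 TPM), Msh4 (18.4 and 18.2 TPM), Ythdc2 (27.5 and 29.6 TPM), Rec114 (22.4 and 14.0 TPM) and Sun1 (30.0 and 41.0 TPM) lay within or across the 4F range.

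Further genes of the pathway were taken from a list of 42 meiosis and recombination genes, of which 41 were matched and 38 tested. From day 7 to day 21 in 4F cells, 18 rose and 3 fell (limma with Benjamini-Hochberg adjustment), with a median log2 fold change of 0.66. That is 55.3% past the threshold, beside 40.6% of all genes tested. With voom or median-of-ratios rescaling, 15 of them were past the threshold. Of its 7 genes of general cohesin and its regulators, 5 were higher, namely Rad21, Stag2, Smc1a (63.0 and 83.7 TPM at day 7, 186, 181 and 176 TPM at day 21), Smc3 and the loader Nipbl. So were strand exchange genes that are also used outside meiosis or with DMC1, such as Psmc3ip (log2 fold change 2.56, SE 0.20, adjusted p = 0.000209, same test) and its partner Mnd1 (log2 fold change 1.24). Genes that rose besides these included 4930432K21Rik (Brme1), Palb2, Brca1, Rad51c, Xrcc3, Rpa1, Rpa2, Exo1, Ccdc155 (Kash5) and Sun2. The 3 that fell were 4930447C04Rik (log2 fold change -3.58), Zcwpw1, a reader of PRDM9 marks (-0.62), and Cntd1, a crossover factor (-0.96). 4930447C04Rik encodes the central element protein SIX6OS1 (53.3 and 22.7 TPM at day 7, 2.18, 1.54 and 2.31 TPM at day 21). Most exon bases of Cntd1 are shared with Becn1 on the opposite strand, and no strand option is stated for the counting. Its fall therefore cannot be told apart from a change of Becn1. Smaller parts of the exons of 4930447C04Rik, Zcwpw1 and Psmc3ip are shared with Six6, Pilra and Mlx, also on the opposite strand. No count without such genes is given for this list. Between 8F and 4F cells at day 21, 5 of these 38 genes were lower and none higher (13.2% past the threshold, beside 8.37% of all genes tested). There were 9 with an unadjusted p under 0.05, beside 4858 of all 21780 genes, and voom called 4. They were Stag2 (log2 fold change -0.58), Smc1a (-0.95), Smc3 (-0.60), Mnd1 (-0.72) and Ankrd31, a break formation cofactor that works with REC114 (-1.41, SE 0.24, limma, BH-adjusted p = 0.0221). Stag2, Smc1a and Smc3 are 3 of the 7 general cohesin genes, and none of the 5 calls held when either 8F library was left out.

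The pair of day 7 libraries was not alike in the meiotic genes. Of the 40 genes, 37 were higher in replicate 1 and 2 (Trip13 and Rec114) higher in replicate 2. Among all genes with at least 1 TPM in a day 7 library, 12862 of 22118 were higher in replicate 1. Over the 36 tested meiotic genes, the median difference was 0.65 on the log2 scale, beside 0.02 over all genes tested. Of the 36 genes above 0 in both libraries, 14 were over 2-fold apart and all of these were higher in replicate 1, among them Stra8 (17.7-fold), Mei4 (15.2-fold), Msh5 (7.98-fold), Dmc1 (7.43-fold), Terb1 (4.71-fold) and Meiob (3.23-fold). Beside Ccnb1ip1, the 3 genes with the highest mean at day 7 were closer, with a ratio of 1.02 for Tex15, 1.16 for Syce2 and 1.20 for Smc1b, while Tex14 (1.64), Meioc (1.54) and Stag3 (2.95) were further apart. Oocyte markers went the other way, with 2 of 10 higher in replicate 1 and a median difference of -0.36, and so did the proliferation markers, with 2 of 10 and -0.24. Leaving out either library moved the comparison between the days, as given above for the counts, the median and single genes. Of the 18 other settings, Rad51ap2 was past the threshold, as higher at day 21, only without replicate 1 of day 7 (limma, BH-adjusted p = 0.00333). No pair of replicates at day 21 had a median difference this large in the meiotic genes: it was -0.04 between the 8F libraries and -0.05 to -0.01 between pairs of 4F libraries.

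**Figure D5:**
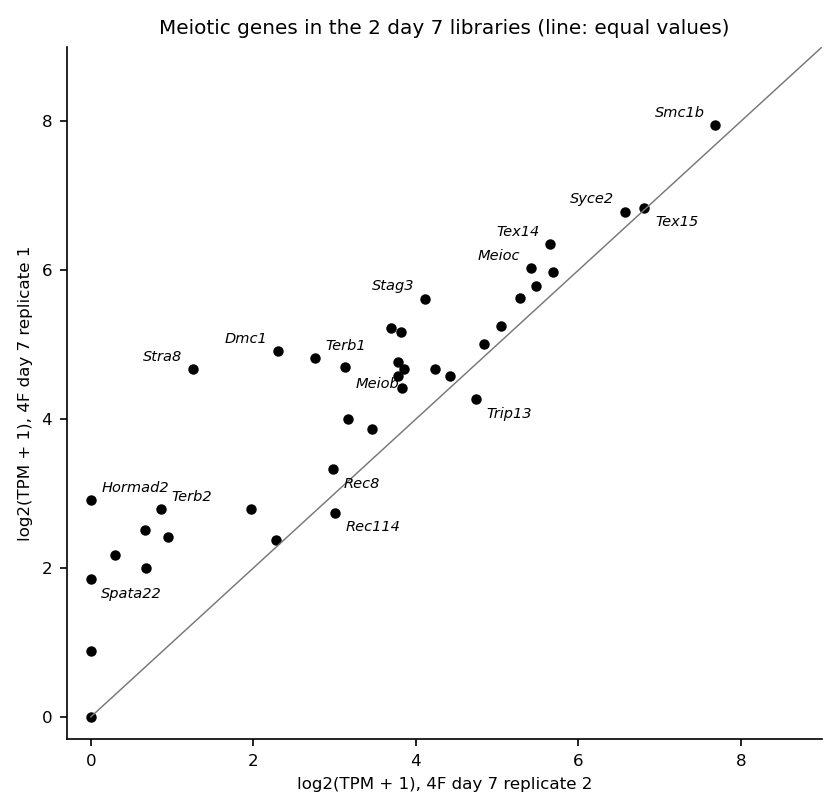
Levels of the meiotic genes, as log2(TPM + 1), in replicate 2 (horizontal) against replicate 1 (vertical) of 4F cells at day 7, with 1 point per gene and a line of equal values; Ccnb1ip1, with equal values in both libraries, lies outside the axes. Nearly all points lie above the line, and Stra8 and Dmc1 lie far above it.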

How the data were processed

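Mini-oocyte RNA was amplified with the SMART-seq Stranded Kit and sequenced as read pairs by the authors. The paper names different sequencers and read lengths without saying which library had which. Whether these differed between the groups was not examined here. Per the labels and the study's methods, reads were trimmed (Trim Galore), aligned to mm10 (HISAT2), cleared of rRNA (bedtools), kept where uniquely mapped, and counted on GENCODE genes with featureCounts, splitting a read that overlaps several genes into equal fractions; strand settings were not stated. The authors deposited TPM, and depth and molecule number are not part of it.

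From the deposited TPM, genes that reached 1 TPM in 2 or more libraries were tested on log2(TPM + 1), a scale that understates changes of low genes, with limma 3.58.1 in R 4.3.3 (moderated with a trend, 3 groups, no block, two-sided, Benjamini-Hochberg, FDR 0.05). All 7 libraries entered the fit. Reads were estimated from the steps of low TPM values and GENCODE vM21 exon lengths, which matched 54312 of 55364 genes (98.1%). Of the low values, 86.4% to 91.7% were whole reads within 0.02. Positions are those of GRCm38. The test was run on simulated data first. Alternatives were pseudocounts of 0.1 and 5, other filters and scalings, library weights, the 2 groups alone, a replicate block, each library left out and, added after seeing the data, voom on estimated reads and counts without genes whose exons overlap another gene. All 40 genes are named, and of the further list those past FDR 0.05, except 1 that is not reported here. The genes, lists and motifs were chosen with earlier results of these data known. Speedya of the further list had no match. 8F day 21 was not tested against 4F day 7.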

Additional observations from a re-analysis of the deposited data

How the results depend on the processing

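The comparison between the days was the firmer of the pair. For 4F cells, 10 of the 29 genes tested without exons that overlap another gene were past the threshold, 4 higher and 6 lower. Of all genes tested, 40.6% were past it, 25.3% higher and 15.3% lower. The 6 lower genes include Stra8 and Rec8, which could differ in 1 direction only. The genes left out there included Rec114, Brca2, Hsf2bp, Msh4 and Sun1, which were called higher, and Ccnb1ip1, called lower. In all other settings, the count of 16 meiotic genes past the threshold stayed within 1.5 times. Over the libraries left out in turn, it was between 11 and 14. The fold change reversed in sign for Smc1b after quantile normalization (-0.0104) and for Ythdc2 in 6 settings, past the threshold with voom (-0.52) and not after median-of-ratios rescaling (-0.32) or quantile normalization (-0.36), and the cause was not tested. Of the 20 genes not past the threshold, 7 passed it in at least 1 other setting and 12 had the opposite sign in at least 1.

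Between 8F and 4F cells, the count of 3 meiotic genes became 1 with eBayes without the trend, 6 with library weights and 1 to 3 with a library left out. The count of 5 genes of the further list became 3 without a filter, 3 after quantile normalization, 1 with eBayes without the trend and 0 to 4 with a library left out. Leaving out either 8F library, which leaves that group a single sample assumed to vary like the others, gave 1 gene and 0 further genes. Of the 33 genes not past the threshold, 4 passed it in at least 1 other setting and 14 had the opposite sign in at least 1.

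With the replicate number as a block, 14 meiotic genes were past the threshold between the days and 1 between 8F and 4F cells, and 15 and 0 further genes. The labels do not say that equal numbers mark samples made together, and the deviations of same-numbered libraries correlated between -0.04 and 0.01, so the numbers were not taken to pair the samples. Groups of 2 or 3 libraries and floors near 3 reads limit what can be said of the low genes, such as Spo11, Mei1, Mei4, Spata22 and Terb2.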
